A study of Mus musculus with 4 samples.

Results

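Fos, Fosb, Jun, Junb, Jund, Atf3, Egr1, Ier2, Maff and Fosl2, 10 of the 27998 genes in the count tables, were followed as the AP-1 and early growth response genes of sorted bone marrow progenitors. They were taken by name from a list made with earlier results of these data known, and all 10 were found under 1 identifier each. The cells were lymphoid-primed multipotent progenitors (LMPPs), early blood cells with lymphoid and myeloid potential, sorted from the marrow of C57BL/6 mice and profiled by droplet RNA sequencing. RBPJ is the DNA-binding partner through which activated Notch receptors turn on target genes. The uninduced group came from mice without RBPJ. The 3-day and 6-day groups came from mice that started without it and regained it for 3 or 6 days on doxycycline, injected at 2 mg/ml and then drunk at 1 mg/ml. The control group came from mice that kept RBPJ throughout. The labels name neither the promoter or Cre that drives each change nor the number of animals behind a library, and they give the same treatment text for all groups, so whether control and uninduced mice also drank doxycycline is not stated.

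AP-1 is a dimer of basic leucine zipper proteins, in which a Fos family protein pairs with a Jun family protein, or Jun proteins pair with each other or with Atf proteins. Many of these genes, with the zinc finger gene Egr1 and the small nuclear protein gene Ier2, are immediate early genes, whose RNA appears within minutes of a growth factor, cytokine or stress signal passed on by MAP kinases and is short-lived. In blood progenitors they are known to respond to cytokines and also to the handling of cells during isolation.

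Promoters are shown for 4 members that were at least 1.5-fold higher in uninduced than in control cells. That of Junb, which moved least among the Jun genes, is shown as well. Some control elements of these genes lie close to the start site. RefSeq promoter sequences (GRCm38.p6), from 250 bases before to 50 bases after the start, were given for 8 of the 10 genes, all except Egr1 and Ier2. Fos lies at chr12:85473640-85473939 on the plus strand. The others shown lie on the minus strand, Fosb at chr7:19309996-19310295, Jun at chr4:95052173-95052472, Atf3 at chr1:191183284-191183583 and Junb at chr8:84978699-84978998. Capitals mark TGACG, the core of the cyclic AMP response element (CRE), and TNACNTCA, a looser form of that element chosen after the sequences had been seen, each on either strand and overlapping where both match.
Fos: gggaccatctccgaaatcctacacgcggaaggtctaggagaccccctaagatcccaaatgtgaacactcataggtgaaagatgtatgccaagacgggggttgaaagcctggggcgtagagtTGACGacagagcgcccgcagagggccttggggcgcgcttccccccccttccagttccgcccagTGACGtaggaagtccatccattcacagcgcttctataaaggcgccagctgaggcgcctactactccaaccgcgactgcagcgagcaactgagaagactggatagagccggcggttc
Fosb: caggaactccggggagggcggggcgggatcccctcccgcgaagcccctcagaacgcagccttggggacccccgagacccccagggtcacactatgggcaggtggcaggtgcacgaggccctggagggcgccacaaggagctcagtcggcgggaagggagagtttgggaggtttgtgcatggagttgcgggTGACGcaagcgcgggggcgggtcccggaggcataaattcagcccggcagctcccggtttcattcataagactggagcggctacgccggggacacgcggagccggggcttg
Jun: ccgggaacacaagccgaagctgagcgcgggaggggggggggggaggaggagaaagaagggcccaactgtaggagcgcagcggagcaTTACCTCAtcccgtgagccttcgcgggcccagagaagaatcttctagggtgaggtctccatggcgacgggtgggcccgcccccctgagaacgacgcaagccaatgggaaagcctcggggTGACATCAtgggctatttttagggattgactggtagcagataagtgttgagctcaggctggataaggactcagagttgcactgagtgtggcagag
Atf3: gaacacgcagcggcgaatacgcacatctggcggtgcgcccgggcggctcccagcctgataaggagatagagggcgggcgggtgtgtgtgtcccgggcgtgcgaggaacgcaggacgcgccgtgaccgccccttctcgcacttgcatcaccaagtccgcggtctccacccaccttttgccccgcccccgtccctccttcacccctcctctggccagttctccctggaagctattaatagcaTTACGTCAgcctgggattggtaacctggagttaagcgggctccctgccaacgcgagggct
Junb: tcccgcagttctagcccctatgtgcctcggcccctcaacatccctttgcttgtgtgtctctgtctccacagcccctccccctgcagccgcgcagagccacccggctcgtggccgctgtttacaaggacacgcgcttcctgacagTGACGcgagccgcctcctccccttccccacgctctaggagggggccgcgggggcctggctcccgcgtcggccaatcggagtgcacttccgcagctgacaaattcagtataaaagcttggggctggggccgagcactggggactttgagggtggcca
The TGACG core stood in the promoters of 4 of 8 members (Fos, Fosb, Junb and Atf3), beside 21.02% of 27025 promoters of the same length. Fos held it from base -129 to -125 and from -66 to -62, counted from the start site. TNACNTCA stood in 3 of 8 (Jun, with a match from -164 to -157 and another from -45 to -38, Jund and Atf3, from -10 to -3), beside 16.49% of promoters. The window given for Jund, chr8:70697489-70697788, lies wholly before the gene position used here, chr8:70698949-70700616. What it holds or lacks may therefore not describe that start of Jund. The AP-1 site TGANTCA, which 7.933% of promoters hold, and the RBPJ site GTGGGAA, which 6.39% hold, matched none of the 8 windows. The CArG box CCWWWWWWGG (W is A or T), which 1.573% hold, and the ETS site CCGGAA, which 15.22% hold, matched none of them either. Sites more than 250 bases before the start, and any site of Egr1 or Ier2, were not searched. A gene without a match here may thus still have such a site. The EGR site GCGNGGGCG matched Fosb and Fosl2, beside 5.554% of promoters. Maff has 3 listed starts and is counted here by the first. Its second start, at chr15:79347270-79347569, holds the whole palindrome TGACGTCA from -29 to -22, a match found in 1.876% of promoters. These are matches of letters in a window, not measured binding.

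UMIs, which count captured RNA molecules, were summed over the cells the authors had kept and are given as CPM, the count scaled to a common total of all UMIs in those cells. The uninduced, 3-day, 6-day and control libraries held between 1292 and 2769 cells, with medians of 6774 to 7920 UMIs per cell. The uninduced library had 2769 cells and 20952799 UMIs, the 3-day library 1292 cells and 10647894 UMIs, the 6-day library 2129 cells and 17455692 UMIs and the control library 2693 cells and 23504158 UMIs. Median depth was lowest in uninduced cells (6774 UMIs) and highest in control cells (7920 UMIs). Each group is 1 library, so group and library cannot be told apart, no difference has a replicate check, and no test across cells was made. Intervals (95%) cover counting error only. Any pair of libraries shared between 2 and 17 cell barcodes. Rbpj stood at 11.22 CPM in uninduced cells, 508 CPM at 3 days, 484.7 CPM at 6 days and 17.78 CPM in control cells. Which part of the gene was deleted is not stated, so its level in uninduced cells checks the label only in part. Hes1, a direct Notch target, stood at 17.99 CPM in uninduced cells, 43.48 CPM at 3 days, 129.3 CPM at 6 days and 89.73 CPM in control cells. The progenitor markers Flt3 (190.5 to 222.8 CPM) and Cd34 (410.8 to 484.2 CPM) were present in all 4 libraries, while Cd3e of T cells was at 0 in all of them. Female Xist (1066 to 1744 CPM, highest at 6 days) and male Ddx3y (20.57 to 33.55 CPM, lowest at 6 days) were found in every library.

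The summed level of the 10 genes was 4977 CPM in uninduced cells (95% interval 4947 to 5007), 4726 CPM at 3 days (4685 to 4768), 3106 CPM at 6 days (3080 to 3133) and 3222 CPM in control cells (3199 to 3245). Cells without RBPJ and cells 3 days after its return thus lay together at a high level, and cells at 6 days lay with control cells. The sum was 1.54-fold higher in uninduced than in control cells (1.53 to 1.56). In cells thinned to 4700 UMIs this ratio was 1.452, and in cells of 5000 to 10000 UMIs only it was 1.388. The sum was 0.950 of the uninduced level at 3 days (0.940 to 0.960) and 0.624 of it at 6 days (0.618 to 0.631). These comparisons share libraries and are not independent of each other.

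**Figure D1:**
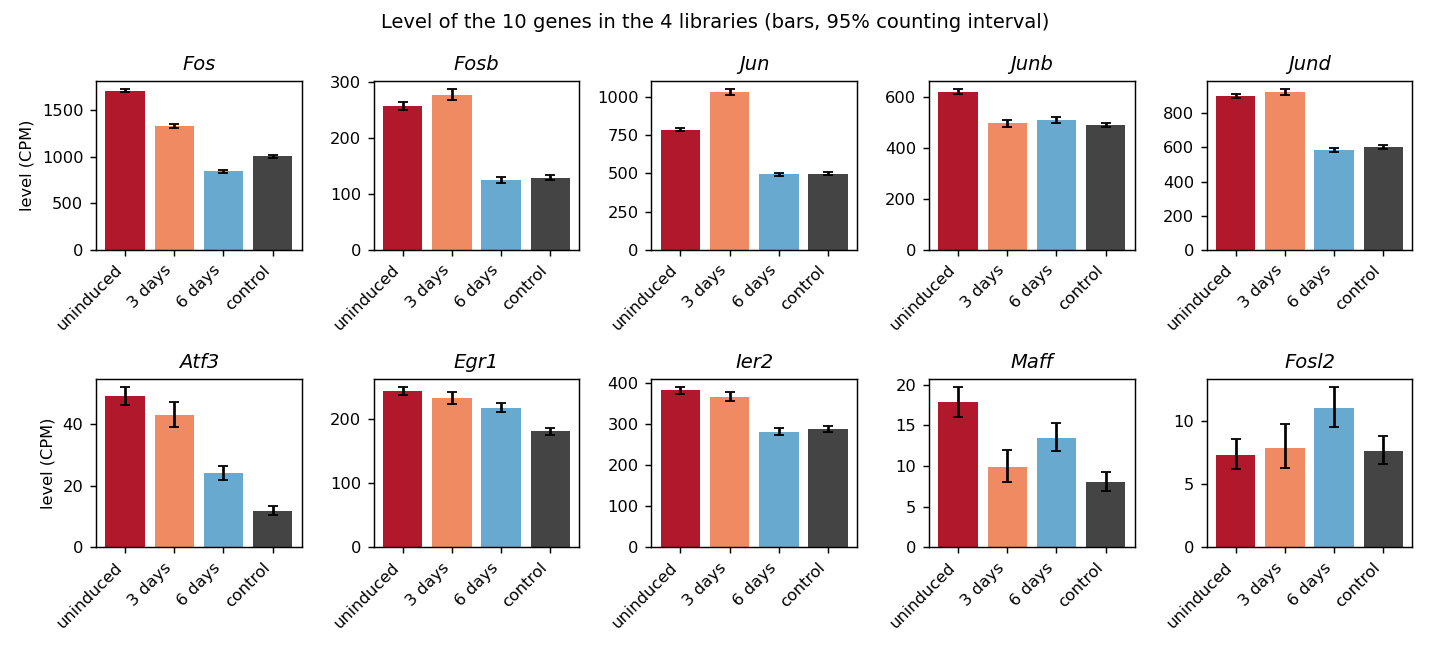
Level of each of the 10 genes (CPM, linear axis from 0, a scale of its own for each gene) in the uninduced, 3-day, 6-day and control libraries. Bars are levels summed over all cells of 1 library and whiskers are 95% exact Poisson intervals. Most panels show high uninduced and 3-day bars beside low 6-day and control bars, Junb and Egr1 vary least, and Fosl2 is highest at 6 days.

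A gene was counted as higher or lower when it differed by at least 1.5-fold on the CPM + 1 scale and reached 10 CPM in at least 1 of the libraries compared. Of the 10 members, 9 reached that level in the comparison of uninduced with control cells, all but Fosl2. Of these, 5 were higher in uninduced cells (Fos, Fosb, Jun, Atf3 and Maff) and 0 were lower, where 0.691% of 7235 genes were higher and 0.76% lower. The Jun call ended when cells were thinned to 4700 UMIs, at 1.45-fold, and also with cells of 5000 to 10000 UMIs only, which left 4 higher in either case. The median log2 ratio of the 9 members that reached 10 CPM was 0.66, against -0.07 over all 7235 genes. At 3 days against uninduced cells, 1 of 9 members was lower (Maff) and 0 were higher, where 0.847% and 0.466% of 7082 genes were (1.31% either way). At 6 days against uninduced cells, 5 of 10 were lower (Fos, Fosb, Jun, Jund and Atf3) and 0 were higher, where 0.31% of 7097 genes were lower and 0.733% higher. The calls of Jun and Jund ended with thinned cells, at 0.668 and 0.688 of the uninduced level, and with cells of 5000 to 10000 UMIs only, which left 3 lower in either case. In the cells of 5000 to 10000 UMIs 1 member, Fosl2, was higher. Between 6 and 3 days, the count was again 5 of 10 lower (Fos, Fosb, Jun, Jund and Atf3) and 0 higher, where 0.674% of 7118 genes were lower and 1.4% higher (2.08% either way). At 3 days against control cells, 4 of 8 were higher (Fosb, Jun, Jund and Atf3) and 0 lower, where 0.91% of 7255 genes were higher and 1.39% lower (2.3% either way). Set against control cells, 2 of 10 members were higher at 6 days (Atf3 and Maff) and 0 lower, where 0.608% of 7235 genes were higher and 0.152% lower (0.76% either way).

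**Figure D2:**
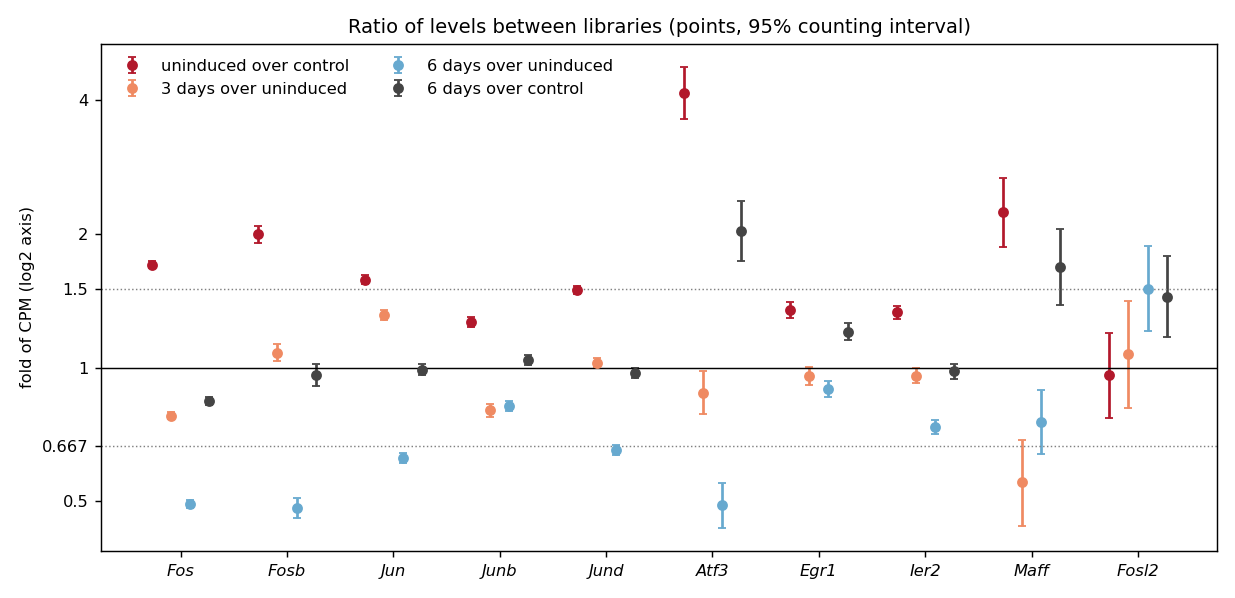
Ratio of CPM of each gene, on a log axis, with 95% conditional exact intervals for counting error. Shown are uninduced against control cells, 3 days and 6 days each against uninduced cells, and 6 days against control cells. Atf3 stands highest among the 10 genes in uninduced against control cells at 4.13-fold. At 6 days against control cells 8 of the 10 genes lie within 1.5-fold.

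Fos encodes the Fos protein itself and lies at chr12:85473890-85477273 (GRCm38, plus strand). It was at 1712 CPM in uninduced cells (1695 to 1730), 1336 CPM at 3 days (1314 to 1358), 844.7 CPM at 6 days (831.1 to 858.4) and 1005 CPM in control cells (992.5 to 1018). It therefore stepped down at both times after induction and ended below control. The ratio was 1.70 in uninduced against control cells (1.68 to 1.73), 0.780 at 3 days against uninduced cells (0.765 to 0.795) and 0.840 at 6 days against control cells (0.823 to 0.858).

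Fosb, a Fos relative that is also an immediate early gene, lies at chr7:19302696-19310051 (minus strand). It was at 256.3 CPM in uninduced cells, 276.7 CPM at 3 days, 124 CPM at 6 days and 128.7 CPM in control cells. The uninduced and 3-day libraries stood at about the same height and so did the 6-day and control libraries, with the gap between the pairs far outside the counting intervals. The ratio was 1.99 in uninduced against control cells (1.90 to 2.08) and 0.448 at 6 days against 3 days (0.424 to 0.474). Fosl2, which encodes the Fos family protein Fra-2 and lies at chr5:32135801-32157842 (plus strand), was low throughout, with 7.35 CPM in uninduced cells, 7.889 CPM at 3 days, 11.06 CPM at 6 days and 7.658 CPM in control cells. It was the member with its highest level at 6 days, 1.504-fold the uninduced level (1.21 to 1.87) on 193 UMIs at 6 days and 154 UMIs in uninduced cells, and it did not pass the threshold on the CPM + 1 scale.

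Jun, the main partner of Fos, lies at chr4:95049034-95052222 (minus strand) and overlaps the antisense gene Junos, which stood at 1.547 to 2.63 CPM. Jun was at 785.8 CPM in uninduced cells (773.8 to 797.9), 1031 CPM at 3 days (1012 to 1051), 492.6 CPM at 6 days (482.3 to 503.1) and 498.2 CPM in control cells (489.2 to 507.3). It was highest at 3 days, 1.31-fold above uninduced (1.28 to 1.34) and 2.07-fold above control cells (2.02 to 2.13), whereas Fos was already lower at 3 days than in uninduced cells. At 6 days Jun was 0.989 of control (0.962 to 1.02), a difference within counting error.

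Jund, a Jun gene known for steadier expression than its relatives, lies at chr8:70698949-70700616 (plus strand). It was at 900.1 CPM in uninduced cells, 923.8 CPM at 3 days, 587.1 CPM at 6 days and 603 CPM in control cells. Its ratio of 1.49 in uninduced against control cells (1.46 to 1.53) lay just short of the threshold, which edgeR or DESeq2 scaling took it past. It lay just past it at 3 days against control cells (1.53, 1.49 to 1.57) and at 6 days against uninduced cells (0.652, 0.637 to 0.668), the last of these not with thinned cells. Junb lies at chr8:84974484-84978718 (minus strand) and overlaps Prdx2 on the other strand, which stood at 340.6 to 365.6 CPM. Whether counting used the strand is not stated, so reads where these genes overlap may be assigned to either. Junb was at 622.3 CPM in uninduced cells (611.7 to 633.1), 498.4 CPM at 3 days (485.1 to 512), 510.4 CPM at 6 days (499.8 to 521.1) and 490.8 CPM in control cells (481.9 to 499.8). Among the Jun genes it alone was back near control by 3 days, at 1.02-fold (0.983 to 1.05), and its ratio in uninduced against control cells was 1.27 (1.24 to 1.30).

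Atf3, a stress-induced member of the Atf family, lies at chr1:191170296-191218039 (minus strand). It was at 48.87 CPM in uninduced cells (45.92 to 51.96), 42.92 CPM at 3 days (39.07 to 47.04), 23.95 CPM at 6 days (21.71 to 26.36) and 11.83 CPM in control cells (10.48 to 13.3). Its 4.13-fold ratio in uninduced against control cells (3.62 to 4.74) ranked 9 among 7235 genes from the highest log2 ratio down. Unlike Fos, Fosb, Jun and Jund, it stayed above control at 6 days, at 2.02-fold (1.74 to 2.36). Maff, a small Maf protein gene that lacks an activation domain and lies at chr15:79346621-79359076 (plus strand), was at 17.85 CPM in uninduced cells (16.09 to 19.75), 9.861 CPM at 3 days (8.065 to 11.94), 13.46 CPM at 6 days (11.8 to 15.3) and 7.999 CPM in control cells (6.896 to 9.227). Maff was lower at 3 days than at 6 days, the opposite order to Fosb and Jun, and was 1.68-fold above control at 6 days (1.38 to 2.05).

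Egr1, a zinc finger activator of growth and differentiation genes on chromosome 18 (34859823 to 34864984, plus strand), was at 243.5 CPM in uninduced cells (236.9 to 250.3), 233.3 CPM at 3 days (224.2 to 242.6), 217.6 CPM at 6 days (210.7 to 224.6) and 180.9 CPM in control cells (175.5 to 186.4). All 3 groups of RBPJ-switched mice lay above control, and no ratio between them passed 1.5-fold. The 6-day ratio to uninduced cells, 0.894, turned to a log2 ratio of 0.02 when only cells of 5000 to 10000 UMIs were used, so its direction is uncertain. Ier2, at chr8:84661331-84662852 (minus strand), was at 382.5 CPM in uninduced cells, 366.7 CPM at 3 days, 281.7 CPM at 6 days and 287.5 CPM in control cells. Like Fosb it was high in uninduced and 3-day cells and low in 6-day and control cells, with smaller steps, at 1.33-fold in uninduced against control cells (1.29 to 1.37) and 0.768 at 6 days against 3 days (0.736 to 0.801).

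To ask whether the higher level was spread over the cells or sat in a subset, each cell was thinned to 4700 UMIs, which left 2093 uninduced, 1088 3-day, 1755 6-day and 2342 control cells. Shallower cells left out numbered 676 uninduced, 204 3-day, 374 6-day and 351 control cells. The median cell held 20 UMIs of the 10 genes in uninduced cells, 20 at 3 days, 13 at 6 days and 13 in control cells. The cell at the 10th percentile held 7 UMIs in uninduced and 3-day cells and 4 in 6-day and control cells, and the cell at the 90th held 41 in uninduced cells, 42 at 3 days, 28 at 6 days and 31 in control cells. Among the thinned cells the whole distribution was thus shifted, low cells as well as high ones. The shallow cells left out were not part of it. Cells under 5000 UMIs had a summed level of 8375 CPM in the uninduced and 6104 CPM in the control library, the highest of any depth range there. Barcodes of very few UMIs, taken as RNA free in the suspension, had 6112 CPM in the uninduced and 4015 CPM in the control library. The part of either in the shift was not tested. Of uninduced cells 71.09% lay above the control median of 13 UMIs (69.1% to 73.03%), as did 71.32% of 3-day cells, 48.38% of 6-day cells and 49.32% of control cells, by exact binomial intervals. Above the 90th percentile of control cells (31 UMIs) lay 22.98% of uninduced, 23.35% of 3-day, 6.553% of 6-day and 8.967% of control cells.

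The ratio of uninduced to control cells was 1.59 within the lowest 50% of cells, 1.52 within the middle 50% and 1.31 within the highest 10%, so it was larger in low cells than in high ones. The 10% of cells with most UMIs of these genes held 22.52% of them in uninduced cells, 23.15% at 3 days, 23.89% at 6 days and 24.92% in control cells. Cells with no UMI of any of the 10 genes numbered 4 of 2093 uninduced, 5 of 1088 3-day, 13 of 1755 6-day and 15 of 2342 control cells. For 6-day against uninduced cells the ratio was 0.603 in the lowest 50% and 0.700 in the highest 10%. The relative difference was thus again larger in low cells. These ratios cover thinned cells only. The part in them of the shallow cells left out, and of RNA free in the suspension, was not tested.

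**Figure D3:**
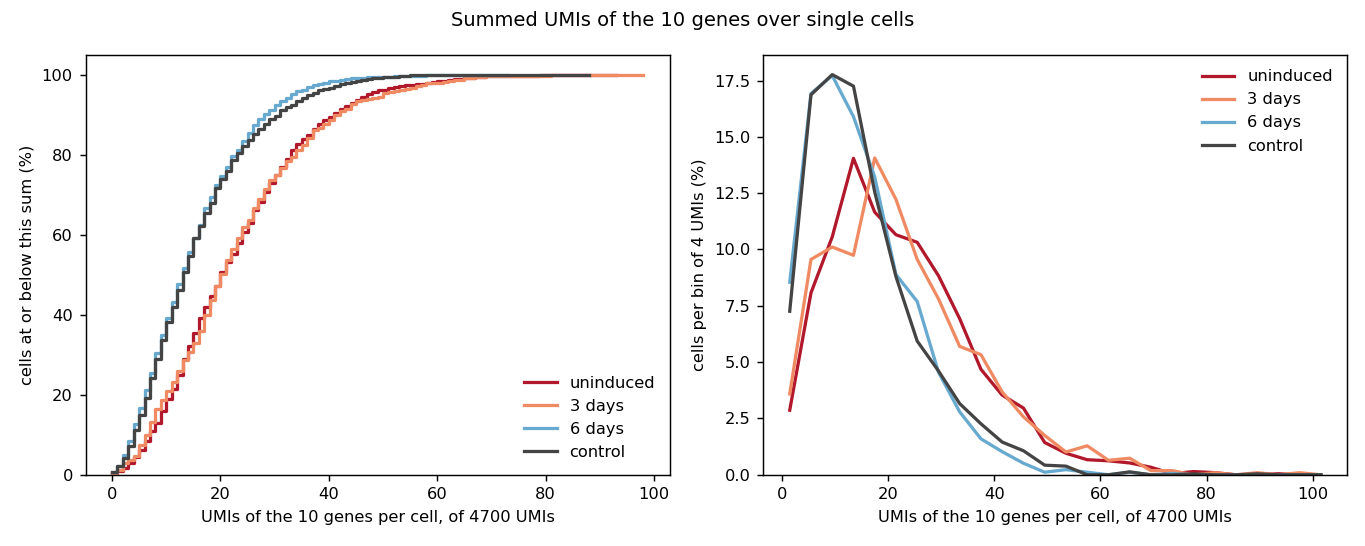
Distribution over cells of the UMIs summed over the 10 genes, each cell thinned to 4700 UMIs, in the uninduced, 3-day, 6-day and control libraries. The uninduced and 3-day curves lie together to the right (median 20 UMIs each) of the 6-day and control curves (median 13 UMIs each), without a separate second peak.

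Shares of thinned cells with a UMI followed the levels. Fosb was seen in 58.72% of uninduced cells, 61.95% at 3 days, 35.5% at 6 days and 37.57% of control cells. Before thinning the share was 71.11% in uninduced cells, 75.39% at 3 days, 47.91% at 6 days and 51.8% in control cells. Fos was seen in 94.84% of thinned uninduced, 92.1% of 3-day, 84.05% of 6-day and 88.68% of control cells, so most cells carried it in every library. RNA free in the suspension adds UMIs to cells, and no cell type known to lack these genes was set as a background, so shares are not read as shares of expressing cells.

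Atf3 was found in few cells. It was seen in 12.57% of uninduced cells (11.17% to 14.06%), 13.14% at 3 days (11.19% to 15.3%), 6.553% at 6 days (5.44% to 7.813%) and 3.757% of control cells (3.024% to 4.609%). Before thinning the share was 16.11% in uninduced cells, 17.41% at 3 days, 9.3% at 6 days and 5.904% in control cells. Cells with a UMI held on average 2 UMIs in uninduced cells, 1.68 at 3 days, 1.64 at 6 days and 1.55 in control cells. The ratio between variance and mean over cells was 2.91 in uninduced cells, 2.36 at 3 days, 2.45 at 6 days and 3.09 in control cells, where independent draws would give about 1. Fos had ratios of 4.17 to 4.95, Jun of 2.34 to 3.48, Jund of 2.54 to 3.15 and Junb of 2.317 to 2.504. These genes had more UMIs per cell than Atf3, and the ratio also depends on the mean, so it does not compare Atf3 with them. Fosb (1.602 to 1.67), Egr1 (1.786 to 2.116) and Ier2 (1.545 to 1.859) also had more UMIs per cell than Atf3, but lower ratios. Between uninduced and control cells the share of cells with Atf3 differed more than the UMIs per such cell. Maff was seen in 6.641% of thinned uninduced, 3.676% of 3-day, 5.584% of 6-day and 3.8% of control cells, with a variance-to-mean ratio of 1.07 to 1.26. Fosl2 was seen in 3.344% of uninduced, 2.757% of 3-day, 5.242% of 6-day and 3.757% of control cells. Both lay nearer to what independent draws give than Atf3 did, and both had fewer UMIs per cell.

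Members were correlated across thinned cells within each library, as a description over cells that share depth and library. The correlation of a member with the other 9 summed (Pearson, log2 of UMIs + 1) in uninduced cells was 0.56 for Fos, 0.54 for Jund, 0.47 for Junb, 0.42 for Egr1, 0.40 for Fosb, 0.40 for Jun, 0.37 for Ier2, 0.18 for Atf3, 0.13 for Maff and 0.04 for Fosl2. The last 3 are also the sparsest, and in sparse counts a weak correlation is no finding. Fos and Jund were correlated at 0.44 with each other, and Jun with Atf3 at 0.03.

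The 10 genes outside the set whose counts followed it most closely across cells, among 4523 candidates and by the mean correlation over the 4 libraries, were Klf2 (0.44), Zfp36 (0.43), Btg2 (0.42), Malat1 (0.42), Dusp1 (0.41), Cd69 (0.39), Dusp2 (0.38), Nr4a1 (0.36), Klf6 (0.35) and Ier3 (0.34). Klf2, a zinc finger gene of quiescent lymphocytes, was at 566.8 CPM in uninduced cells, 552.9 CPM at 3 days, 186.5 CPM at 6 days and 172.5 CPM in control cells. Like Fosb it was high in the uninduced and 3-day libraries and low in the 6-day and control libraries. Its ratio was 3.29 in uninduced against control cells (3.17 to 3.41) and 0.329 at 6 days against uninduced cells (0.316 to 0.342). Klf6 was at 327.7 CPM in uninduced cells, 370.8 CPM at 3 days, 109.8 CPM at 6 days and 133.6 CPM in control cells, 2.45-fold higher in uninduced than in control cells (2.35 to 2.56). Nr4a1, an orphan nuclear receptor gene induced by antigen receptor signals, was high in uninduced cells at 206.6 CPM but low at 3 days at 99.46 CPM, with 180.7 CPM at 6 days and 137 CPM in control cells. Its lowest value was thus at the time when Jun was highest.

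Of other genes of the pathway, 13 of 21 AP-1 related basic leucine zipper genes, 1 of 5 EGR family and NAB genes, 4 of 6 genes of SRF and its cofactors and 16 of 18 genes of the MAP kinase cascade reached 10 CPM in uninduced or control cells. Of these 34 genes 0 were 1.5-fold higher or lower in uninduced cells than in control cells, where 1.45% of all genes were. Likewise 0 genes of the 4 lists passed at 6 days against uninduced cells, where 1.04% of all genes did. The median log2 ratio in uninduced against control cells was -0.05 for the leucine zipper genes, which pair with Fos and Jun proteins or bind related sites, -0.17 for SRF and its cofactors, which bind the early gene promoters, and -0.13 for the kinase cascade, beside -0.07 over all genes. Egr2 (2.693 to 3.054 CPM) and Egr3 (1.718 to 2.177 CPM), relatives of Egr1, were close to the floor in all 4 libraries. Of 38 other early response genes, 34 reached 10 CPM. Of these 11 were higher and 0 lower in uninduced cells than in control cells, where 0.691% of all genes were higher and 0.76% lower. The median log2 ratio of all 34 was 0.30. At 3 days against uninduced cells 0 were higher and 11 lower, where 0.466% of all genes were higher and 0.847% lower. At 6 days against uninduced cells 0 were higher and 5 lower (Klf2, Klf6, Klf4, Dusp1 and Rhob), where 0.733% of all genes were higher and 0.31% lower. The list as a whole therefore did not keep the high level of the 10 members at 3 days. Its summed level was 5596 CPM in uninduced cells, 4761 CPM at 3 days, 4420 CPM at 6 days and 4015 CPM in control cells.

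Thinned cells were grouped by their UMIs of 42 S phase genes and 53 G2 and M phase genes. Cells at or above 45 UMIs of the G2 and M list were called high in it, of the rest those at or above 20 UMIs of the S list were called high in that, and cells below 11 and 12 UMIs of the S and the G2 and M list were called low in both. These are ranges of a score, not cell types, and 118 of 7278 cells lay within 1 UMI of the G2 and M limit and 570 within 1 UMI of the S limit. Cells low in both lists had a summed level of 5841 CPM in the uninduced library, 6204 CPM at 3 days, 3753 CPM at 6 days and 4105 CPM in control. Cells high in the S list had 3949 CPM in the uninduced library, 3572 CPM at 3 days, 2719 CPM at 6 days and 2655 CPM in control. Cells high in the G2 and M list had 4543 CPM in the uninduced library, 4117 CPM at 3 days, 2655 CPM at 6 days and 2816 CPM in control. The genes thus stood higher in cells low in both lists, in all 4 libraries. Across thinned cells the sum also fell with the total UMIs a cell had before thinning, with correlations of -0.380 to -0.332. Its correlation was -0.270 to -0.184 with the S list and -0.263 to -0.178 with the G2 and M list. The part of depth in the difference between ranges was not tested.

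The difference between libraries stood in every range. The ratio of uninduced to control cells was 1.42 in cells low in both (1.39 to 1.46), 1.37 in cells between the limits, 1.49 in S-high cells and 1.61 in G2 and M-high cells. Shares of cells low in both were 31.01% of uninduced, 29.5% of 3-day, 35.61% of 6-day and 31.77% of control cells. With each library set to the control mix of ranges the ratio of uninduced to control cells was 1.453, beside 1.452 as measured.

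**Figure D4:**
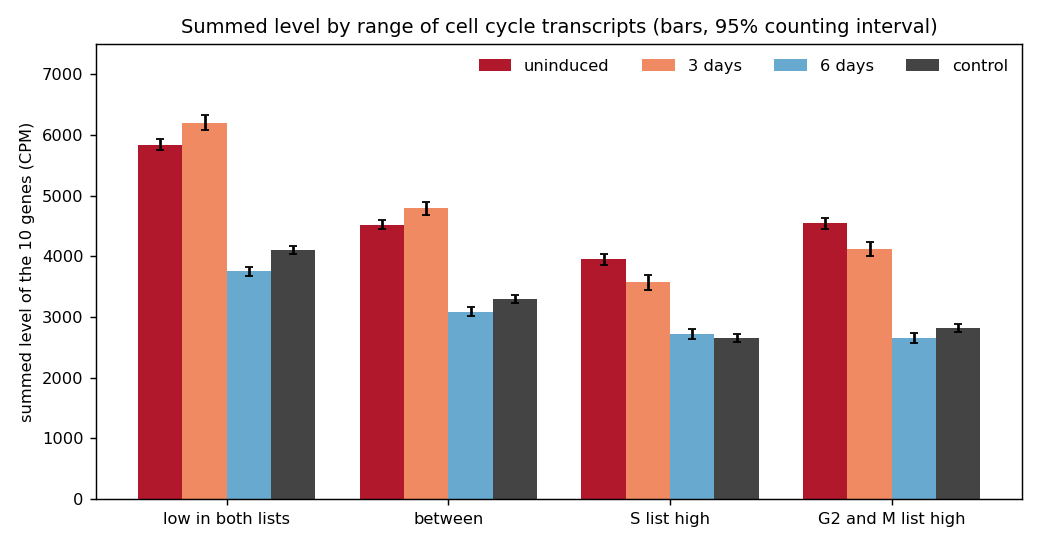
Summed level of the 10 genes (CPM, axis from 0) in 4 ranges of cell cycle transcripts, for the uninduced, 3-day, 6-day and control libraries, with 95% counting intervals. In each range the uninduced and 3-day bars stand above the 6-day and control bars, and cells low in both lists have the highest bar in each library.

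Members differed in how they followed the cell cycle ranges. Junb was lower in cycling cells in every library, with G2 and M-high cells at 0.582 of cells low in both in the uninduced library, 0.579 at 3 days, 0.527 at 6 days and 0.487 in control. Atf3 was lower still in G2 and M-high cells, at 0.293 in uninduced cells, 0.380 at 3 days, 0.227 at 6 days and 0.217 in control cells. Fosb was not lower there in uninduced (1.05, 0.936 to 1.17), 6-day (1.12, 0.944 to 1.32) or control cells (0.978, 0.845 to 1.13), and was lower at 3 days (0.728, 0.628 to 0.843). Fos lay between these, at 0.839 in uninduced cells, 0.743 at 3 days, 0.838 at 6 days and 0.792 in control cells. In the 3-day library the cells low in both lists carried Jun at 1.59-fold the uninduced level of that range (1.496 to 1.68).

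Cells were also clustered on other genes, leaving out the 10 members, and 11 of 16 clusters held at least 20 cells in each library. The summed level was higher in uninduced than in control cells in 11 of 11 clusters, by 1.13-fold to 1.76-fold, and at least 1.5-fold in 5 of them. Fosb was at least 1.5-fold higher in 11 of 11, Atf3 in 11 of 11 (2.11-fold to 12.2-fold), Fos in 10 of 11 and Junb in 0 of 11. The higher level was thus found in clusters of different leading genes. Between 6-day and uninduced cells the sum was lower in 12 of 12 clusters with enough cells in both libraries, at 0.512 to 0.766, and at 3 days against uninduced cells it lay at 0.903 to 1.16.

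The summed level also differed between clusters of 1 library. A cluster led by Cxcl2, Ccl3 and Socs3, with Atf3 and Ier3 among its leading genes, had 7504 CPM in uninduced cells, 8238 CPM at 3 days, 5019 CPM at 6 days and 5349 CPM in control cells. A cluster led by Ccr9 and Cd7, genes of progenitors that seed the thymus, had 7841 CPM in uninduced cells, 9095 CPM at 3 days, 4018 CPM at 6 days and 5281 CPM in control cells. The stem cell-like cluster, with Procr and Hlf among its leading genes, had 6327 CPM in uninduced cells, 5853 CPM at 3 days, 3513 CPM at 6 days and 4010 CPM in control cells. These 3 clusters were the highest in uninduced cells among the 11. They also had the lowest median depths of the 11, at 4806 UMIs (Ccr9 and Cd7), 4967 UMIs (stem cell-like) and 5149 UMIs (Cxcl2). Medians of the other clusters were 5747 to 12744 UMIs. Levels by cluster were taken from unthinned cells, and the part of depth in them was not tested. A cluster led by Irf8, with Mpo and Ctsg, was low in each library. It had 2984 CPM in uninduced cells, 3358 CPM at 3 days, 2285 CPM at 6 days and 2648 CPM in control cells. Its ratio of uninduced to control cells was the smallest of the 11 clusters, at 1.127. Another cluster with Ctsg, Irf8 and Mpo among its leading genes, beside Rrm2 and Tk1, had the largest ratio, at 1.765. It had 3746 CPM in uninduced cells, 3723 CPM at 3 days, 2594 CPM at 6 days and 2123 CPM in control cells. Its median depth of 12744 UMIs was the highest. The Cxcl2-led cluster held 19.07% of uninduced cells, 13.16% at 3 days, 15.83% at 6 days and 12.14% of control cells. Without it, a choice made after seeing the data, the sum was still 1.51-fold higher in uninduced than in control cells and the log2 ratio of Atf3 was 1.99, against 1.96 with it.

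**Figure D5:**
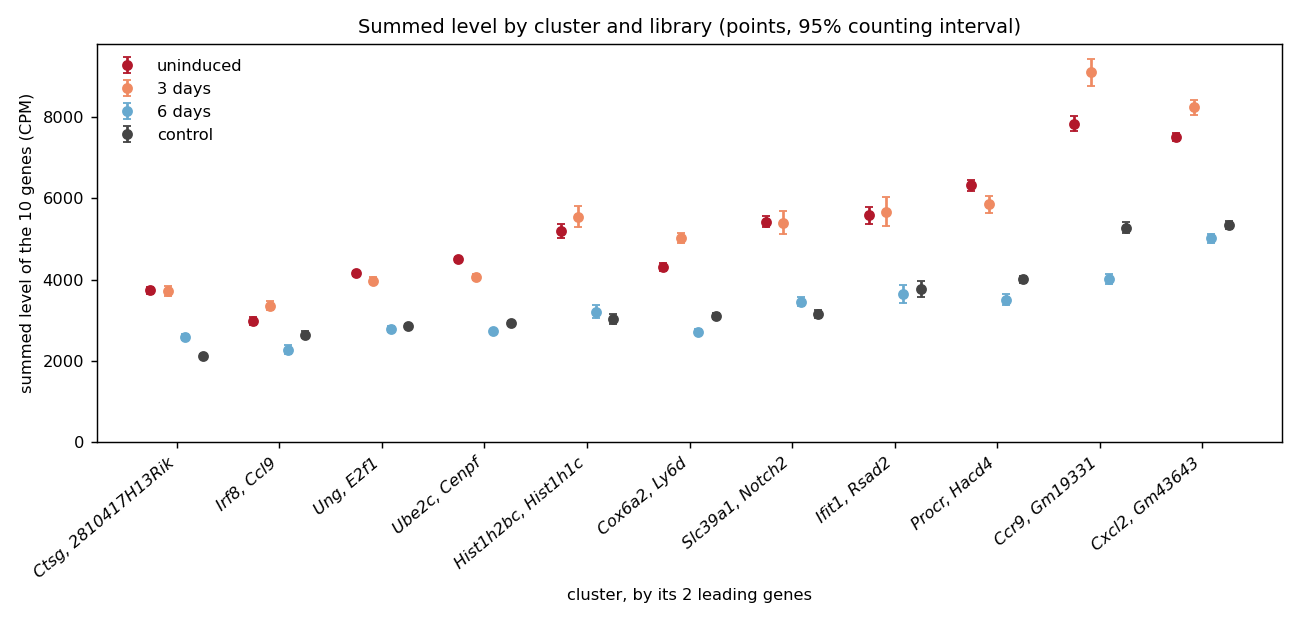
Summed level of the 10 genes (CPM) in each cluster with at least 20 cells in all 4 libraries, for uninduced, 3-day, 6-day and control cells. The clusters led by Ccr9 and by Cxcl2 reach the highest levels, and in 11 of 11 clusters the uninduced value lies above the control value.

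In the induced libraries the cells with a UMI of Rbpj were set against those without, a comparison within 1 library that was added after seeing the data. At 3 days the 463 cells with Rbpj had 4087 CPM of the 10 genes and the 625 cells without had 5407 CPM, a ratio of 0.756 (0.736 to 0.776). At 6 days the values were 2811 CPM in 757 cells with and 3455 CPM in 998 cells without, a ratio of 0.814 (0.794 to 0.834). Cells with detected Rbpj thus had the lower level at both times. Of the members at 3 days, Junb had the ratio 0.640 (0.590 to 0.695), Jund 0.732, Jun 0.772 and Fos 0.786. In the same split of uninduced cells (83 with, 2010 without) the ratio was 1.06 (1.01 to 1.11), and in control cells (180 with, 2162 without) it was 1.06 (1.02 to 1.10).

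Cells with detected Rbpj were also more often cycling. At 3 days 29.16% of cells with and 16.64% of cells without were high in the G2 and M list, and 16.2% of cells with and 39.36% of cells without were low in both lists. Within the 4 ranges the ratio of cells with to cells without was 0.808 to 0.864 at 3 days and 0.763 to 0.948 at 6 days. It lay below 1 in all 8 of these, but was closer to 1 than the unsplit ratio in all but the G2 and M-high cells at 6 days. A cell without an Rbpj UMI may still have had the RNA. Split by Hes1 in the same way, the ratio of cells with to cells without was 1.15 in uninduced cells, 1.32 at 3 days, 1.12 at 6 days and 1.28 in control cells, so cells with detected Hes1 had more of the 10 genes in each library, the other way from Rbpj in the induced ones.

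Cell depth, free RNA, Malat1, heat shock genes and markers of other cells also differed between libraries or followed the level across cells, and their part in the result was not tested. Cells under 5000 UMIs had a summed level of 8375 CPM in the uninduced, 8423 CPM in the 3-day, 5140 CPM in the 6-day and 6104 CPM in the control library, and cells of 10000 UMIs or more had 3628 CPM in uninduced cells, 3493 CPM at 3 days, 2324 CPM at 6 days and 2451 CPM in control cells. Within depth ranges the ratio of uninduced to control cells was 1.37 below 5000 UMIs, 1.33 from 5000 UMIs, 1.46 from 7500 UMIs and 1.48 from 10000 UMIs, each above 1 and below the ratio of 1.54 over all cells. In barcodes of 10 to 100 UMIs, taken as free RNA, the summed level was 6112 CPM in the uninduced library, 5656 CPM at 3 days, 3881 CPM at 6 days and 4015 CPM in control, so the same libraries were high and low as in cells. Malat1, a nuclear RNA, was at 14030 CPM in uninduced cells, 12413 CPM at 3 days, 12331 CPM at 6 days and 11406 CPM in control cells, and its correlation with the sum across cells was 0.37 to 0.46. The mitochondrial share of UMIs was 2.70% to 2.98%, with a correlation of 0.15 to 0.27. Xist, among the genes most opposed to the sum across cells (mean correlation -0.24), was highest at 6 days. Hspa1a, a heat shock gene, was at 56.51 CPM in uninduced cells, 448 CPM at 3 days, 18.91 CPM at 6 days and 10.85 CPM in control cells. Of 11 heat shock genes 6 were at least 1.5-fold higher at 3 days than in uninduced cells, where 0.466% of 7082 genes were. The 7 neutrophil markers, 0 of which were at 0 in any library, summed to 3437 CPM in uninduced cells, 4027 CPM at 3 days, 2856 CPM at 6 days and 953.7 CPM in control cells. The neutrophil-like cluster, with 23 uninduced cells, had 2173 CPM of the 10 genes in those cells. The 8 erythroid markers, 1 of which was at 0 at 3 days, summed to 861 CPM in uninduced cells, 292.5 CPM at 3 days, 733.9 CPM at 6 days and 357 CPM in control cells. Neutrophil markers were thus still high at 6 days, and erythroid markers were lowest at 3 days. The 6 megakaryocyte markers summed to 8.495 CPM in uninduced cells, 10.89 CPM at 3 days, 139.8 CPM at 6 days and 7.828 CPM in control cells. Whether any of these kinds of cell had a part in the level of the 10 genes was not tested.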

How the data were processed

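Single-cell RNA of sorted LMPPs was measured in 4 libraries, 1 per group. The deposited matrices hold UMI counts per gene and barcode with no cell filter. Cells were the barcodes of the authors' deposited tables of log2 values, which were used only for that: the log2 values of the 10 genes were at 0 exactly where the counts were. Seurat and mm10 are named per the submitters' processing notes; aligner, counting tool and annotation are not given in the sources used here.

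Per library, the counts of all cells were added up and expressed as CPM, with exact Poisson (levels), conditional exact (ratios) and Clopper-Pearson (shares) intervals at 95%. Calls used log2(CPM + 1), 1.5-fold and 10 CPM in either library. For shares, percentiles and cell cycle ranges cells were thinned to 4700 UMIs. Limits of the cycle ranges were the pooled 80th and 50th percentiles. Cells were clustered with scanpy 1.11.5 and leidenalg 0.10.2 (resolution 1.0, 15 neighbours, 30 components, 2000 variable genes), without batch correction, the members, other early response, heat shock, cell cycle, ribosomal, mitochondrial, haemoglobin or sex-linked genes, Rbpj and Hes1. No doublet caller was run and doublets were kept. A cluster took a name only from marker lists. Scaling by edgeR 4.0.16 and DESeq2 1.42.0 was tried as an alternative. The scripts were checked on simulated data. Gene positions are from GENCODE (GRCm38). In the last 500 bases, 0% of the 31-base words of each member occurred in another gene.

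The members and gene lists were chosen with earlier results of these data known. Named were the 10 members, up to 2 genes each way of each pathway list, the 10 genes most like the members among those at 20 CPM or more in every library, Rbpj and Hes1. Heat shock, marker and other singled-out genes were named after their values were seen.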

Additional observations from a re-analysis of the deposited data

Results flagged for a closer look

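A signal of the 10 genes also stood in data outside the main measurement, in barcodes with over 100 UMIs that the authors had not kept as cells. Their summed level there was 5216 CPM in the uninduced library and 6153 CPM in the 3-day library, both above the 3959 CPM of the control library. The ratio to control was 1.32 in uninduced (1.22 to 1.42) and 1.55 at 3 days (1.43 to 1.69), while at 6 days 4242 CPM gave a ratio of 1.07 (0.988 to 1.16). The intervals cover counting error only, and these barcodes numbered 207 in the uninduced, 111 in the 3-day, 527 in the 6-day and 195 in the control library.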

How the results depend on the processing

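No paired analysis was possible because the groups are single libraries, and no replicate could be left out. The summed ratio of uninduced to control cells ranged from 1.39 to 1.63 over the alternatives, that of 6-day to uninduced cells from 0.618 to 0.687, and that of 3-day to uninduced cells from 0.941 to 1.03. No member past 1.5-fold changed direction. At 6 days against uninduced cells, 3 members rather than 5 (without Jun and Jund) were lower with cells thinned to 4700 UMIs, and 3 were lower and 1 was higher with cells of 5000 to 10000 UMIs only. Without the Cxcl2-led cluster, an alternative chosen after seeing the data, 1 was higher there. At 6 days against 3 days, 1 member was higher with thinned cells and 2 with cells of 5000 to 10000 UMIs. The cause was not tested. Other counts of members stayed within 1.5 times. Over all genes, the number past 1.5-fold in uninduced against control cells was 105 at a minimum of 10 CPM, 325 with no minimum and 64 at 30 CPM, at 3 days against uninduced cells 93, 387 and 41, at 6 days against uninduced cells 74, 247 and 52, at 6 against 3 days 148, 548 and 77, at 3 days against control cells 167, 612 and 76, and at 6 days against control cells 55, 259 and 26. Depth limits Maff and Fosl2 most, with 105 and 84 UMIs in the 3-day library.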
